A study of Mus musculus with 2 samples.

Results

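Conventional dendritic cells of the mouse mitral valve were chosen by the measured counts of marker genes from 2 droplet single-cell RNA-seq libraries. A barcode was kept with at least 1000 unique molecular identifiers (UMIs, one per captured transcript), at least 500 genes and at most 20% mitochondrial UMIs. A kept barcode was a member when Flt3, Zbtb46, Xcr1, Clec9a and Cd209a together held at least 2 UMIs and Cd74, H2-Aa, H2-Ab1 and H2-Eb1 together held at least 1% of its UMIs. It also had to hold under 5 UMIs of C1qa, C1qb and C1qc, at most 1 UMI of Cd79a and Cd79b, and under 1% of its UMIs in Dcn, Col1a1, Col1a2 and Col3a1. This gave 216 members among 18630 kept barcodes, of 19253 in all. Of these, 112 came from the wild type library (9190 kept) and 104 from the Fbn1 C1039G/+ library (9440 kept).

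One library held cells of 5 pooled Fbn1 +/+ mice, and the other held cells of 3 pooled Fbn1 C1039G/+ mice, which carry one missense allele of the microfibril gene Fbn1 and are used as a model of Marfan syndrome. All mice were C57BL/6J aged 1 month. Both leaflets of the mitral valve were digested with collagenases, Dispase, elastase and hyaluronidase at 37°C, and the cells were captured with 10x Genomics 3' chemistry. With 1 pooled library per genotype there was no replicate, so no test across animals could be made. All intervals below are 95% intervals that cover counting error only.

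Conventional dendritic cells take up antigen in tissue, carry it to lymph nodes and present it to T cells, and they depend on the cytokine receptor Flt3. The type 1 subset (cDC1) carries Xcr1 and Clec9a, needs Irf8 and Batf3, takes up dying cells and presents their antigen on MHC class I. The type 2 subset (cDC2) carries lectins such as Cd209a and Mgl2 with Sirpa, uses Irf4 and mainly primes CD4+ T cells through MHC class II. In mice, healthy heart valves are known to hold dendritic cells beside macrophages.

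The member genes chose the cells, so their levels describe the choice. Flt3 stood at 111 CPM (UMIs per 1000000 UMIs of the summed cells) in wild type members and 86.7 CPM in Fbn1 C1039G/+ members, against 2.72 and 3.34 CPM in macrophages of high MHC class II (498 and 477 barcodes with at least 5 C1q UMIs and at least 1% class II UMIs). Zbtb46, a transcription factor of conventional dendritic cells, stood at 59.3 and 59.4 CPM in members and at 4.40 and 2.22 CPM in those macrophages. Both genes are part of the member rule, so these levels do not test the label. Most members were well inside the limits. A marker sum of exactly 2 UMIs was seen in 5 wild type and 8 Fbn1 C1039G/+ members, and 8 and 3 barcodes with a sum of 1 met every other limit. No C1q UMI was found in 90 and 83 members. Another 26 barcodes in each library met every limit but the one on interstitial transcripts.

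Members made up 1.22% (1.00 to 1.46) of kept wild type barcodes and 1.10% (0.901 to 1.33) of kept Fbn1 C1039G/+ barcodes. The difference was -0.117 percentage points, with an interval from -0.428 to 0.192. Over leukocyte barcodes (at least 3 of Ptprc, Laptm5, Coro1a, Cd52 and Rac2 detected and low interstitial transcripts) the shares were 10.1% and 9.49%. The median depth was 14424 UMIs in wild type members and 11326 in Fbn1 C1039G/+ members, while kept barcodes as a whole had medians of 9917.5 and 9815.5. The total was 1787510 UMIs over the wild type members and 1246172 over the others. The libraries shared 17 kept barcodes, none of them a member.

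Some members carried transcripts of other valve cells, and these members were unevenly spread over the libraries. Dcn, Col1a1, Col1a2 and Col3a1 reached 0.1% of UMIs in 25 of 112 wild type members (22.3%) and in 4 of 104 Fbn1 C1039G/+ members (3.85%), a difference of -18.5 points (-27.3 to -9.71). These 25 and 4 members had median depths of 22908 and 18863.5 UMIs, against 13657 and 11210 in the remaining 87 and 100. Of them, 19 of 25 and 4 of 4 were among the highest doublet scores of their library, against 0 of 87 and 2 of 100. All 7 interstitial markers, of which 4 chose these members, were detected in them. The summed list had medians of 7609 and 9987 CPM in them, against 223 and 187 CPM in the remaining members. A list of 16 macrophage markers had medians of 6536 and 12585 CPM in them and of 455 and 402 CPM in the rest. The 87 and 100 members under 0.1% are called clean members. They made up 0.947% and 1.06% of kept barcodes. This difference, 0.113 points (-0.176 to 0.402), had the other sign than that over all members, and both intervals held 0. Below, gene levels and list counts between subsets are for all members, with the named calls that were lost among clean members stated, and genotypes are compared within subsets mainly among clean members. The part of mixed droplets in each difference was not tested.

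**Figure D1:**
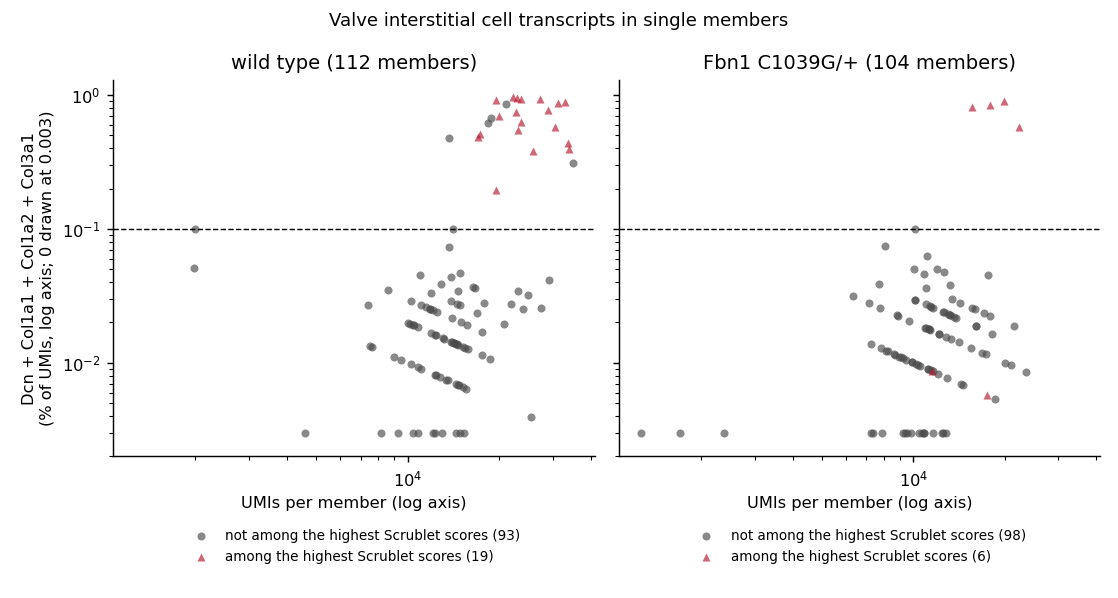
Share of UMIs in Dcn, Col1a1, Col1a2 and Col3a1 (%, log axis, 0 drawn at 0.003) against UMIs per member (log axis), 1 point per member, for the wild type (left) and Fbn1 C1039G/+ (right) libraries. Triangles are members among the highest Scrublet scores, and the dashed line marks 0.1%. At or above it lie 25 wild type and 4 Fbn1 C1039G/+ members, most of them deep.

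Lists of other leukocytes were low but not absent. Only 40 wild type and 35 Fbn1 C1039G/+ members held no UMI of the B cell, T, NK and innate lymphoid lists. In clean members the B cell list stood at 102 and 105 CPM summed, with medians of 71.6 and 87.1 CPM per cell. The neutrophil list of 5 genes held 2 UMIs in wild type and 0 in Fbn1 C1039G/+ clean members, and Cd79a and Pax5 were at 0 in both. A list of 10 T, NK and innate lymphoid genes had a median of 0 CPM in both, and 1 Fbn1 C1039G/+ member reached 3813 CPM. Of 7 plasmacytoid dendritic cell genes, 4 were detected, at 101 and 107 CPM summed, with Ly6d, Cox6a2 and Klk1 at 0. The monocyte list stood at 313 and 306 CPM summed.

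Members fell into 2 nearly exclusive subsets. A UMI of Xcr1 or Clec9a without Cd209a was found in 78 wild type and 56 Fbn1 C1039G/+ members, and Cd209a without Xcr1 or Clec9a in 27 and 47. Both were seen in 2 wild type members and in none of the 104 Fbn1 C1039G/+ members. Neither was seen in 5 and 1 members, which were chosen through Flt3 and Zbtb46. The XCR1/CLEC9A members held a median of 10 UMIs of Xcr1 plus Clec9a (1 to 27) in wild type and 7 (1 to 23) in Fbn1 C1039G/+. The CD209A members held a median of 10 UMIs of Cd209a (1 to 41) and 8 (1 to 17).

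**Figure D2:**
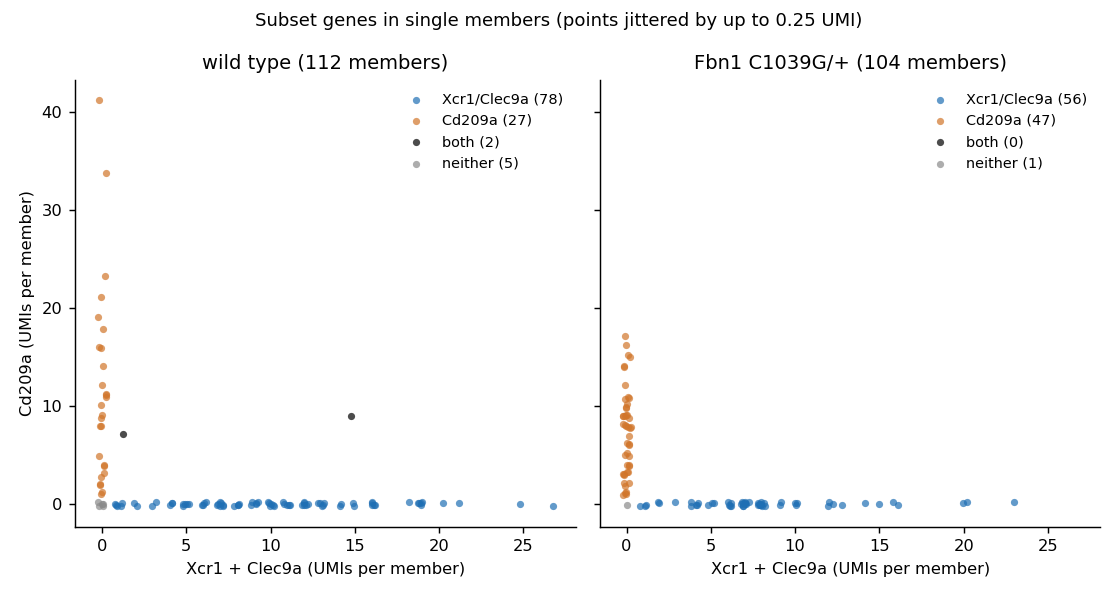
UMIs of Cd209a (vertical axis) against UMIs of Xcr1 plus Clec9a (horizontal axis) in each member, jittered, by library and coloured by subset. The members lie along the axes, and the 2 wild type members with both genes are the only ones off them.

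XCR1/CLEC9A members were 69.6% of wild type and 53.8% of Fbn1 C1039G/+ members, a difference of -15.8 points (-28.1 to -2.84). CD209A members were 24.1% and 45.2%, a difference of 21.1 points (8.41 to 32.9). Among clean members the XCR1/CLEC9A shares were 69.0% (60 of 87) and 55.0% (55 of 100), a difference of -14.0 points whose interval, -27.1 to 0.0057, just reached 0. The clean CD209A shares were 25.3% and 44.0%, a difference of 18.7 points (5.01 to 31.3). Depth sets whether a marker is seen, so members were also thinned to 3000 UMIs each, which left out 2 and 3 shallower ones. The XCR1/CLEC9A shares were then 54.5% and 45.5%, and the CD209A shares 21.8% and 34.7%. At this depth the differences were -9.0 points (-22.0 to 4.44), an interval that holds 0, and 12.8 points (0.701 to 24.6). With 1 library each, the spread of this balance between mice is unknown.

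Of 8761 genes with at least 20 UMIs over the 4 sums, 207 (2.36%) were at least 2-fold higher in XCR1/CLEC9A members in both libraries with counting intervals that excluded 1. Another 340 (3.88%) were higher in CD209A members by the same rule, so 6.24% were counted in either direction. Among clean members 195 (2.59%) and 314 (4.17%) of 7532 genes were counted, 6.76% in all, of which 173 and 256 were also counted in all members. The cells were split by 3 of their own genes, so these contrasts describe the split and carry no test. Scaling by the median of ratios moved the median log2 ratio of all measured genes up by 0.16 and 0.27, and the counts to 290 and 245, so that 54.2% in place of 37.8% of counted genes were on the XCR1/CLEC9A side.

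All 18 genes of a cDC1 list were higher in XCR1/CLEC9A members, with median log2 ratios of 3.17 in wild type and 4.04 in Fbn1 C1039G/+, beside -0.07 and -0.22 over all measured genes. Irf8, the transcription factor on which cDC1 cells depend, stood at 1566 CPM in wild type XCR1/CLEC9A members and 10.5 CPM in CD209A members, a ratio of 149 (58.1 to 547). In Fbn1 C1039G/+ the levels were 1658 and 19.9 CPM, a ratio of 83.3 (45.2 to 174). The subsets were thus far apart in both libraries, and the 2 libraries were alike within each subset. Irf8 was detected in 77 of 78 and 56 of 56 XCR1/CLEC9A members and in 3 of 27 and 6 of 47 CD209A members. The last 2 shares, 11.1% and 12.8%, are near the 11.3% and 13.7% of interstitial cells, whose median depths were 10086 and 10094.5 UMIs against 12439 and 10168 in CD209A members. The gene lies on chromosome 8 (120736358 to 120756694, plus strand, GRCm38).

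Batf3, which partners with Irf8 in cDC1 cells, differed far less. It stood at 174 and 81.4 CPM in the wild type subsets and at 183 and 79.6 CPM in the Fbn1 C1039G/+ subsets, ratios of 2.13 (1.46 to 3.21) and 2.31 (1.61 to 3.37). Cadm1, an adhesion molecule, stood at 277 against 15.8 CPM and at 262 against 13.9 CPM. Ppt1, a lysosomal thioesterase of cDC1 cells, stood at 1057 against 60.4 CPM and at 953 against 41.8 CPM. Wdfy4, which is needed for cross-presentation, had ratios of only 2.71 (2.14 to 3.48) and 2.24 (1.80 to 2.81). Tlr3, a receptor for double-stranded RNA, stood at 168 against 31.5 CPM in wild type and at 137 against 7.96 CPM in Fbn1 C1039G/+. Itgae, the integrin CD103, stood at 263 against 26.3 CPM and at 348 against 49.7 CPM.

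Other genes named by the size of their ratio in XCR1/CLEC9A members lay in part outside the cDC1 list. Cd207, the lectin langerin, stood at 219 and 268 CPM in XCR1/CLEC9A members and at 0 UMIs in CD209A members of both libraries. Against the limit that a count of 0 allows (3 counts per subset and library) it was at least 27.9-fold and 44.9-fold higher. It was detected in 57 of 78 and 39 of 56 XCR1/CLEC9A members, against 0.251% and 0.322% of interstitial cells. Epcam, which marks Langerhans cells together with Cd207, went the other way, at 184 against 465 CPM and at 336 against 571 CPM. Dnase1l3, a secreted DNase, stood at 199 CPM against 0 UMIs in wild type and at 234 against 5.97 CPM in Fbn1 C1039G/+. Fcrla stood at 80.1 against 2.63 CPM and at 107 CPM against 0 UMIs. The scavenger receptor Cd36, a member of the list, stood at 226 and 215 CPM in XCR1/CLEC9A members and at 0 UMIs in CD209A members of both libraries.

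The interferon-inducible genes Ifi205, a member of the cDC1 list, and Ifi211, which is not, were also named. Ifi205 stood at 343 against 5.25 CPM in wild type and at 375 against 5.97 CPM in Fbn1 C1039G/+, ratios of 65.3 (18.0 to 541) and 62.9 (21.3 to 307). Ifi211 stood at 132 against 2.63 CPM and at 193 against 3.98 CPM. These 2 genes are close relatives in a family of near copies, so reads may have been divided between them by the counting.

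In CD209A members, 10 of 15 measured cDC2 list genes (19 listed) were higher, beside 3.88% of all 8761 genes. The median log2 ratios of XCR1/CLEC9A over CD209A members were -3.40 and -3.88, beside -0.07 and -0.22 over all measured genes. The other 5 were not counted, and log2 ratios among them reached 0.83 in wild type and 2.96 in Fbn1 C1039G/+. Mgl2, a lectin of cDC2 cells, stood at 951 CPM in wild type CD209A members and 102 CPM in XCR1/CLEC9A members, and at 1504 against 42.1 CPM in Fbn1 C1039G/+. Sirpa, the receptor by which cDC2 cells are usually sorted, stood at 126 against 1.56 CPM and at 131 CPM against 0 UMIs. Irf4, the transcription factor of the subset, stood at 73.5 against 0.778 CPM and at 33.8 CPM against 0 UMIs. S100a4 stood at 2319 against 54.5 CPM and at 2334 against 81.5 CPM, ratios of CD209A over XCR1/CLEC9A members of 42.6 (33.4 to 55.1) and 28.6 (22.1 to 37.7). Clec10a, Itgam, Clec4a2, Tmem176a, Tmem176b and Ltb were the other 6 counted.

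On the CD209A side, where the CD209A level is given first, Cybb led in order of size. It encodes the catalytic subunit of the phagocyte NADPH oxidase. Cybb stood at 315 against 1.56 CPM in wild type and at 263 against 1.36 CPM in Fbn1 C1039G/+, ratios of 203 (54.9 to 1691) and 193 (34.1 to 7689). Mmp12, the macrophage elastase, stood at 234 and 326 CPM in CD209A members and at 0 UMIs in XCR1/CLEC9A members, at least 100.1-fold and 80.0-fold higher. Cdh1, E-cadherin, stood at 110 CPM against 0 UMIs and at 151 against 1.36 CPM. Mrc1, the mannose receptor, stood at 97.2 CPM against 0 UMIs and at 51.7 against 1.36 CPM. The Fc receptor gene Fcgr3 stood at 97.2 against 3.11 CPM and at 135 against 4.08 CPM. Clec4n (dectin-2), Hpgd, Emb and Tnip3 complete the 12 named on this side with Ltb, Sirpa and S100a4.

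**Figure D3:**
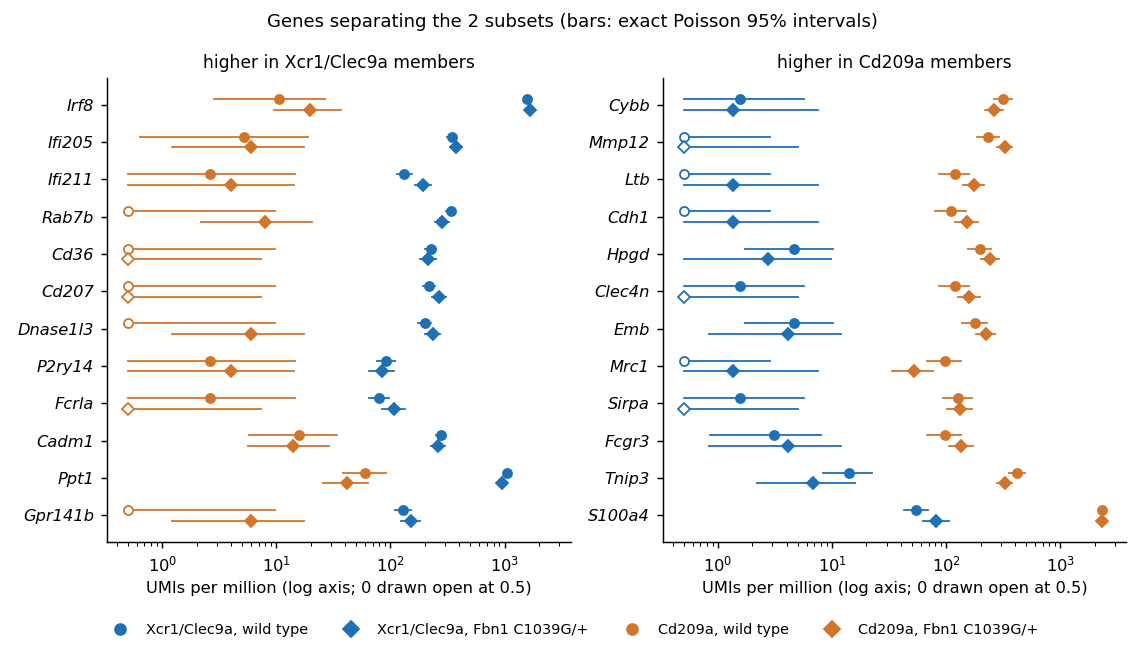
Levels (CPM, log axis) of the genes named by the size of their ratio between the subsets, for XCR1/CLEC9A and CD209A members of each library, with bars for 95% counting intervals. Cybb stood at 315 against 1.56 CPM in wild type and Irf8 at 10.5 against 1566 CPM, each CD209A first, and both libraries show the same order for every gene drawn.

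Of 14 genes shared by dendritic cells, 4 were counted between the subsets, beside 6.24% of all 8761 genes. From here on the XCR1/CLEC9A level is given first and wild type before Fbn1 C1039G/+. The receptor gene Flt3, part of the member rule, stood at 126 against 73.5 CPM and at 105 against 55.7 CPM, and Zbtb46 at 58.4 against 57.8 CPM and at 58.4 against 59.7 CPM. Among the 4, Jaml was higher in XCR1/CLEC9A members and Itgax, Bcl11a and Zeb2 were higher in CD209A members. Itgax, the integrin CD11c, stood at 90.3 against 210 CPM and at 102 against 231 CPM. The remaining 10 were not counted.

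Most antigen presentation genes were not counted between the subsets. Over all 8761 genes 2.36% were counted on the XCR1/CLEC9A side and 3.88% on the CD209A side, 6.24% in all. Counts in short lists near these shares say little about the lists. Of 17 MHC class I and cross-presentation genes, Tap2 and Psmb9 were higher in XCR1/CLEC9A members, and 15 were not counted. Psmb9, an immunoproteasome subunit, stood at 690 against 223 CPM and at 851 against 221 CPM. Of 14 class II pathway genes outside the member rule, H2-Ob was higher in XCR1/CLEC9A members and H2-DMb2, Ctss and Ifi30 were higher in CD209A members. The other 10 were not counted, and under median of ratios scaling 1 of the 14 was counted on each side. Ctss, the protease that trims the invariant chain, stood at 384 against 969 CPM and at 516 against 1188 CPM. Of 11 costimulation genes, Cd86, Havcr2 and Btla were higher in XCR1/CLEC9A members, with Cd86 at 248 against 89.3 CPM and at 306 against 81.6 CPM. Cd80 and Tnfsf9 were higher in CD209A members.

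Of 13 cytokine genes, 5 were higher in CD209A members, 1 in XCR1/CLEC9A members, and 7 were not counted. Over all 8761 genes the shares on these sides were 3.88% and 2.36%. Il1b, interleukin 1 beta, stood at 233 against 1087 CPM in wild type and at 85.6 against 561 CPM in Fbn1 C1039G/+. Tnf, Cxcl2, Ccl6 and Ccl9 were also higher in CD209A members, while Cxcl9 was higher in XCR1/CLEC9A members, at 110 against 2.63 CPM and at 63.9 against 7.96 CPM. Most Fbn1 C1039G/+ Cxcl9 UMIs of clean XCR1/CLEC9A members lay in a single cell, as given below. Of 14 pattern recognition receptors, Tlr2, Clec4n, Cd14, Nlrp3 and Tmem173 were higher in CD209A members and Tlr12 and Ly75 in XCR1/CLEC9A members, and 7 were not counted. Under median of ratios scaling 4 and 3 were counted on these sides. The growth factor receptor Csf1r stood at 10.1 against 89.3 CPM and at 12.2 against 109 CPM, and Ccr1 and Il4ra were counted in the same direction. Ccr9 was counted higher in XCR1/CLEC9A members, but not among clean members.

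Response genes differed in part between the subsets, where 6.24% of all 8761 genes were counted. Of 24 immediate early genes, Klf2 was higher in XCR1/CLEC9A members and Egr1, Egr2, Atf3, Ier3 and Socs3 in CD209A members. Under median of ratios scaling 3 were counted on the CD209A side, and Egr1 was not counted among clean members. Of 20 interferon response genes, Irf7 was higher in XCR1/CLEC9A members, at 85.6 against 15.8 CPM and at 160 against 49.7 CPM, and Oasl2, Ifi27l2a and Rtp4 in CD209A members. Hspa1a and Hspa1b, of 9 heat shock genes, were higher in CD209A members but were not counted among clean members, and none of 18 cell cycle genes was counted. Of 13 maturation genes, Ccr7 and Ccl5 were counted higher in XCR1/CLEC9A members and Ccl17 in CD209A members. All Ccr7 UMIs of XCR1/CLEC9A members, 23 in wild type and 28 in Fbn1 C1039G/+, lay in 1 cell per library, and 1 cell held 83.3% and 97.9% of their Ccl5 UMIs.

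Migratory dendritic cells were few. Ccr7, the receptor that guides dendritic cells to lymph nodes, and Fscn1, an actin bundler of mature dendritic cells, were detected together in 4 wild type and 2 Fbn1 C1039G/+ members. All 4 wild type cells and 1 of the others were among the members with no Xcr1, Clec9a or Cd209a UMI. In those 5 wild type members Ccr7 stood at 2035 CPM and Ccl22 at 2782 CPM. Another 2 such barcodes per library with at least 1% class II UMIs were not members.

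The promoters of the named genes were searched for GAAA, any 2 bases and GAAA again, a core of the interferon-stimulated response element that IRF proteins bind, on both strands from 250 bases before to 50 after the start. RefSeq (GRCm38.p6) gave a promoter for 9 of the 12 genes named for XCR1/CLEC9A members and for 9 of the 12 named for CD209A members. The letters were found in 4 of the former (Ifi205, Ifi211, Fcrla and Gpr141b) and 1 of the latter (Cybb). Over all counted genes they were found in 14 of 160 promoters on the XCR1/CLEC9A side (8.75%) and 15 of 259 on the CD209A side (5.79%), beside 4.09% of 7021 measured genes and 3.44% of all 32851 promoters. A match is a description of letters. Other elements, among them those of NF-kappaB and heat shock elements, were also searched, and their matches in these genes are not given here. The 250 bases before the start of these 5 genes are given 5' to 3' in the direction of the gene because they hold the match; matches are in capitals, and all 5 genes lie on the minus strand: Ifi205 at chr1:174031756-174032005, Ifi211 at chr1:173913047-173913296, Fcrla at chr1:170927584-170927833, Gpr141b at chr13:19732952-19733201 and Cybb at chrX:9469325-9469574.
Ifi205: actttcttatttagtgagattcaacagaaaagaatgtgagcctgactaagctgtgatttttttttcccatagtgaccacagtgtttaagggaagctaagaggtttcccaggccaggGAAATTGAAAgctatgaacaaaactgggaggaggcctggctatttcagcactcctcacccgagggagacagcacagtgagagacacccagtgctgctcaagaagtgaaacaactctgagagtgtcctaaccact
Ifi211: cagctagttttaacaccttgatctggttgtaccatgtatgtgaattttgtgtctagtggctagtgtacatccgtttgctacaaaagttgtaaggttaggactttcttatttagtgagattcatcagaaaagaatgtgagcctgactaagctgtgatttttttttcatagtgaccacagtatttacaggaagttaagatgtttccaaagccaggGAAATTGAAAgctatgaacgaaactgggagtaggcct
Fcrla: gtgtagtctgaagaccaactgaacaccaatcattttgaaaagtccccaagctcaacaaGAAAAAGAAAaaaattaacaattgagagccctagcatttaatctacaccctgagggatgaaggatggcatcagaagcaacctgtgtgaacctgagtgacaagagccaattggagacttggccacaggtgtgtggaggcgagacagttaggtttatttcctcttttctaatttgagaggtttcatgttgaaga
Gpr141b: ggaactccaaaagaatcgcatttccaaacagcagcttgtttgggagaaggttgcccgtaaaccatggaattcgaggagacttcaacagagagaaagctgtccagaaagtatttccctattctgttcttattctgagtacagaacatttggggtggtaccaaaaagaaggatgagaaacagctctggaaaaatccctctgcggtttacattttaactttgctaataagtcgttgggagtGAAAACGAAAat
Cybb: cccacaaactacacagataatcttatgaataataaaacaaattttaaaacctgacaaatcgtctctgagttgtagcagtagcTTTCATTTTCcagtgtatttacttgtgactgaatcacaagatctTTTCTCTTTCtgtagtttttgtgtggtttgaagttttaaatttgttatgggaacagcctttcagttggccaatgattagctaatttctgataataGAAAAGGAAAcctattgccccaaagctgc

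Ifi205 and Ifi211 hold the same 10 letters in capitals within nearly the same surrounding bases, so they are not independent matches. The match began 134 bases before the start in Ifi205, 37 in Ifi211, 192 in Fcrla and 12 in Gpr141b, and 168, 124 and 29 bases before it in Cybb, where the first 2 lie on the other strand. A match on the other strand reads TTTC, 2 bases and TTTC as printed. Named genes of both subsets held these letters, and binding of Irf8 to them was not tested.

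The genotypes were compared in summed UMIs. Over all members, 184 of 6045 genes with at least 50 UMIs (3.04%) were at least 1.5-fold higher in Fbn1 C1039G/+ with a counting interval that excluded 1, and 768 (12.7%) were lower, 15.7% in all. In clean members 150 of 4896 genes (3.06%) were higher and 320 (6.54%) lower, 9.60% in all; 108 and 236 genes were counted in the same direction in both sets. Scaling by the median of ratios in place of total counts moved the median log2 ratio of all members up by 0.13 and the counts to 319 higher and 543 lower, from 19.3% to 37.0% higher. In clean members it moved the median by 0.0104 and the higher share from 31.9% to 34.5%.

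The 10 genes with the smallest ratios over all members were mostly transcripts of other valve cells. Fmo2 went from 64.3 CPM to 0 UMIs and C3, a complement gene of fibroblasts, from 43.6 CPM to 0 UMIs, and Fabp4, Cgnl1, Egfl7, Cytl1, Igfbp3, Igfbp5, Il12b and Plvap complete the 10. In wild type members 5 cells held 90.4% of the Fmo2 UMIs. Igfbp5 went from 109 to 8.02 CPM over all members and from 3.33 to 2.56 CPM in clean members. None of the 10 was counted in clean members, where a gene under the minimum of 50 UMIs could not be counted at all. Not being counted there therefore does not show that a level was unchanged. The 10 with the largest ratios were Ccr1, Hspa1a, Il7r, Hspa1b, Hpgds, Sh2d1b1, Nceh1, Ltb, Isg20 and Cd72. Of the 184 genes higher over all members, 65 were CD209A-side genes of the subset comparison and 6 were XCR1/CLEC9A-side genes. Of the 768 lower genes, 37 and 33 were on these sides. Over all 8761 genes of the subset comparison the shares were 3.88% and 2.36%. The CD209A share of members was larger in Fbn1 C1039G/+, and its part in these counts was not tested. The comparisons below are therefore made within each subset of clean members.

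Within subsets, immediate early genes, which cells switch on within minutes of a stimulus, were lower in Fbn1 C1039G/+. In clean XCR1/CLEC9A members 12 of 22 measured were lower and 0 higher, beside 2.73% of 3548 genes counted higher and 8.40% lower, 11.1% in all. In clean CD209A members 10 of 22 were lower and Jun and Ier5 were higher, beside 2.59% of 1927 genes counted higher and 6.28% lower, 8.87% in all. In the subsets of all members, where 2.57% and 14.7% of 4560 genes (17.2% in all) and 2.94% and 7.68% of 2449 genes (10.6% in all) were counted higher and lower, 13 of 23 and 10 of 24 were lower. In the clean subsets the median log2 ratios were -0.84 and -0.54, against -0.11 and -0.03 over all genes measured there. Scaling by the median of ratios left 12 and 7 lower in them and moved the median over all measured genes by 0.072 and 0.118. Over all genes it moved the higher share of counted genes from 24.6% to 38.2% and from 29.2% to 54.7%.

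Nr4a1, an orphan nuclear receptor gene, went from 290 to 102 CPM in clean XCR1/CLEC9A members, a ratio of 0.351 (0.267 to 0.457), and from 470 to 172 CPM in clean CD209A members, a ratio of 0.366 (0.273 to 0.490). Fos, a subunit of AP-1, went from 2980 to 1579 CPM and from 2551 to 1666 CPM. Dusp2, a phosphatase that acts on MAP kinases, went from 235 to 72.6 CPM and from 211 to 35.8 CPM. Nfkbia, the inhibitor of NF-kappaB, went from 585 to 263 CPM, a ratio of 0.449 (0.378 to 0.531), and from 1148 to 689 CPM, a ratio of 0.600 (0.511 to 0.704). These 4 were lower in both subsets. Dusp1 and Zfp36 were lower in XCR1/CLEC9A members alone by this count, at ratios of 0.489 and 0.498, against 1.05 and 0.957 in CD209A members. Egr1 was counted in neither subset, at 427 and 332 CPM and at 776 and 749 CPM. Whether the subsets differed in this was not tested.

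The lower level was spread over cells. Thinned to 3000 UMIs, clean XCR1/CLEC9A members held a median of 48 immediate early UMIs in wild type (3 to 102, 59 members) and 25 in Fbn1 C1039G/+ (4 to 59, 55 members). Clean CD209A members held medians of 49.5 (2 to 110, 22 members) and 35 (7 to 84, 41 members). The ranges overlapped in both subsets, and the wild type range reached higher. Macrophages of high MHC class II, from the same libraries, had medians of 63 and 23, and 21 of their 24 measured genes of this list were lower, beside 3.54% of 9185 genes counted higher and 5.91% lower, 9.45% in all. These genes also respond to tissue digestion, and handling of the 2 libraries cannot be told apart from genotype.

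**Figure D4:**
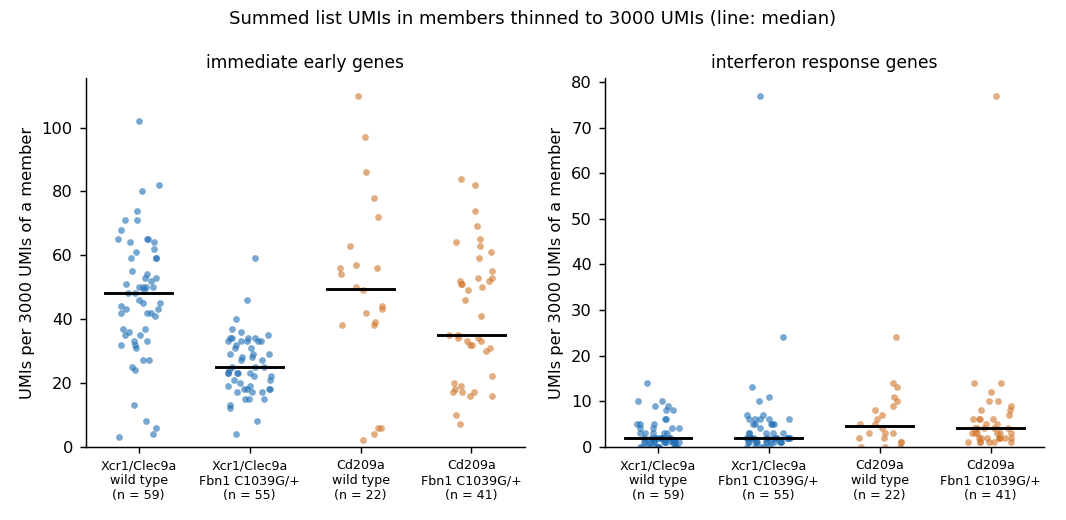
UMIs of immediate early genes (left) and of interferon response genes (right) in clean members thinned to 3000 UMIs, 1 point per member, with medians as lines. Immediate early medians were 48 and 25 in XCR1/CLEC9A members and 49.5 and 35 in CD209A members, whereas interferon medians were 2 and 2 and 4.5 and 4, with 1 Fbn1 C1039G/+ member of each subset at 77.

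Of the costimulation list, 2 of 8 genes were lower in clean XCR1/CLEC9A members and 2 of 6 in clean CD209A members, none was higher, and Cd83 was among the lower ones in both. In the maturation list 1 gene was higher (Marcksl1) and 1 lower (Ccl17) of 8 in clean XCR1/CLEC9A members, and 0 of 3 were counted in clean CD209A members. Over all genes measured there, 2.73% were counted higher and 8.40% lower in XCR1/CLEC9A members, and 2.59% and 6.28% in CD209A members. Counts in lists this short say little about the lists. Cd83, a surface protein of activated dendritic cells that holds MHC class II at the membrane, went from 392 to 81.0 CPM in clean XCR1/CLEC9A members, a ratio of 0.207 (0.154 to 0.274). In clean CD209A members it went from 310 to 114 CPM, a ratio of 0.368 (0.255 to 0.527). Its highest cell held 4.96% and 17.2% of the UMIs in XCR1/CLEC9A members of the 2 libraries, so many cells contributed. In macrophages of high MHC class II it went from 343 to 107 CPM. Of the cytokine and pattern recognition lists, Il1b went from 275 to 88.0 CPM and from 1221 to 611 CPM, and Cd14, a co-receptor for lipopolysaccharide, from 65.1 to 39.1 CPM and from 328 to 91.7 CPM. In all, 31 genes were lower in both clean subsets, among them Icam1, Rel, Nfkbid, Nfkbiz, Tnfaip3, Bhlhe40 and Pde4b, chosen here after their values were seen. They were 20.5% of the 151 lower genes in XCR1/CLEC9A members and 27.4% of the 113 in CD209A members, over 1839 genes measured in both.

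Chemokines lower in clean XCR1/CLEC9A members were Cxcl9, from 151 to 65.7 CPM, Ccl4, from 83.4 to 20.96 CPM, and Ccl17, from 289 to 39.1 CPM. For Cxcl9, 1 cell held 47.0% of the wild type and 91.5% of the Fbn1 C1039G/+ UMIs of that subset. Ccl17 was also uneven, with 43.5% and 35.7% of the UMIs in 1 cell. In clean CD209A members Ccl17 stood at 937 and 642 CPM and was not counted, and Ccl4, at 51.0 and 51.4 CPM, was under the minimum of 50 UMIs. Ccr2, the receptor for monocyte chemoattractants, was higher in clean XCR1/CLEC9A members, at 129 and 194 CPM, and lower in clean CD209A members, at 186 and 103 CPM.

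None of 17 cDC1 genes was counted in clean XCR1/CLEC9A members and none of 12 cDC2 genes in clean CD209A members, where 2 of 12 were higher under median of ratios scaling. Over all genes measured there, 11.1% and 8.87% were counted. Irf8 stood at 1808 and 1662 CPM in clean XCR1/CLEC9A members, a ratio of 0.919 (0.852 to 0.992), and Batf3 at 199 and 187 CPM. Sirpa stood at 131 and 137 CPM in clean CD209A members, a ratio of 1.04 (0.678 to 1.62). Irf4 stood at 98.4 and 35.8 CPM there, a ratio of 0.364 (0.183 to 0.700), and was not measured by the minimum of 50 UMIs. None of the class II pathway genes outside the rule was counted in either clean subset, of 11 and 10 measured. Of the class I genes, Calr was lower in clean XCR1/CLEC9A members (16 measured) and H2-Q7, which has near copies, in clean CD209A members (13 measured).

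**Figure D5:**
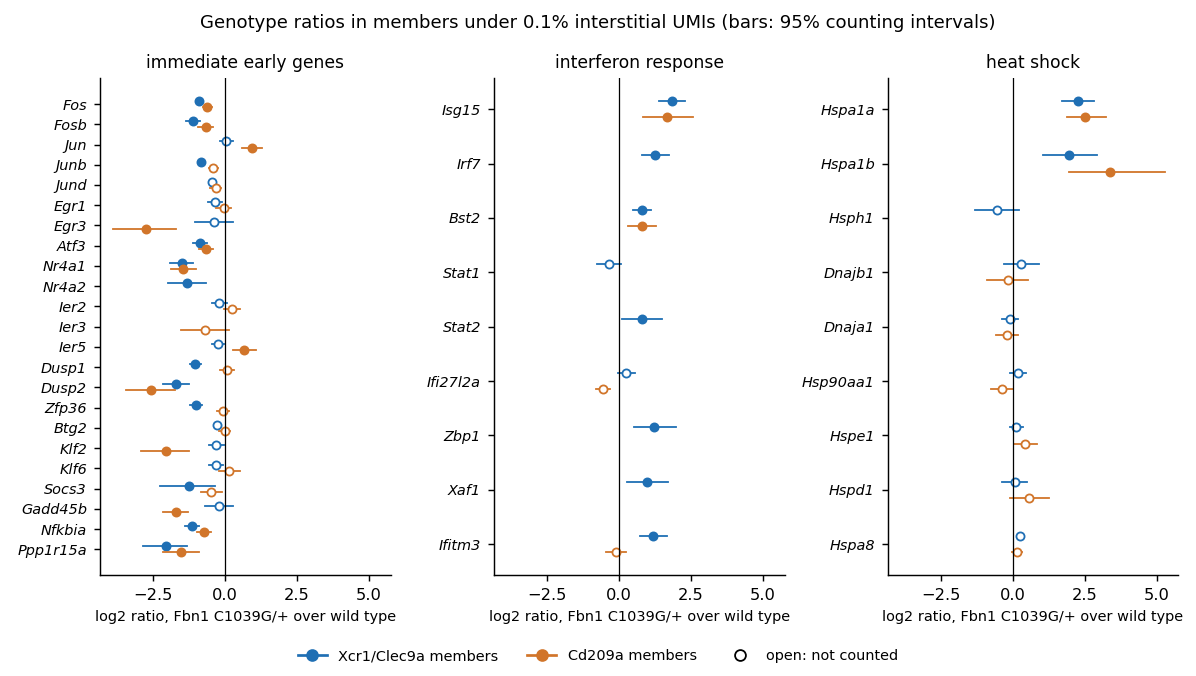
Log2 ratios of Fbn1 C1039G/+ over wild type for immediate early, interferon response and heat shock genes with at least 50 UMIs in clean members, by subset, with 95% counting intervals; open points were not counted. Most immediate early genes lie left of 0 (12 of 22 counted lower in XCR1/CLEC9A and 10 of 22 in CD209A members), and Hspa1a and Hspa1b lie right of it in both subsets.

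Interferon response genes were higher in Fbn1 C1039G/+ in the sums, but single cells carried much of this. In clean XCR1/CLEC9A members 7 of 9 measured were higher, with a median log2 ratio of 0.95, beside 2.73% of 3548 genes. In clean CD209A members 2 of 4 were higher, with a median of 0.34, beside 2.59% of 1927 genes. Isg15, a ubiquitin-like protein induced by interferon, went from 62.9 to 225 CPM and from 54.7 to 172 CPM. In Fbn1 C1039G/+, 1 cell held 49.7% of the Isg15 UMIs of clean XCR1/CLEC9A members and another held 55.8% of those of clean CD209A members. Per member thinned to 3000 UMIs, the median number of interferon list UMIs was 2 in both libraries for XCR1/CLEC9A members, and 4.5 and 4 for CD209A members. The highest member held 77 in each Fbn1 C1039G/+ subset, against 14 and 24 in wild type.

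Without the member of highest interferon share in each subset and library, 5 of 9 genes were still higher in clean XCR1/CLEC9A members (Isg15, Bst2, Stat2, Xaf1 and Ifitm3), 0 of 3 in clean CD209A members, and 1 higher and 1 lower of 11 over both. Over all members the same step left Stat2 higher and Ifit2, Ifit3 and Gbp2 lower of 15, and over all XCR1/CLEC9A members Stat2 higher and Ifitm3 lower of 11. Ifitm3 thus went from 282 to 174 CPM over all XCR1/CLEC9A members and from 66.3 to 151 CPM in the clean ones. Bst2, tetherin, was more evenly spread than Isg15. In clean CD209A members it too was not counted without the member of highest interferon share. It went from 174 to 303 CPM in clean XCR1/CLEC9A members, a ratio of 1.74 (1.41 to 2.16), and from 175 to 302 CPM in clean CD209A members, a ratio of 1.73 (1.23 to 2.45), with 14.3% and 19.3% of the Fbn1 C1039G/+ UMIs in 1 cell. In macrophages of high MHC class II, Isg15 went from 139 to 273 CPM. There 5 of 23 interferon genes were higher and 2 lower, beside 3.54% and 5.91% of 9185 genes.

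The promoter of Isg15 is given because it shows the searched letters in a known interferon target; 11 of 17 interferon list genes with a promoter held them (64.7%), beside 3.44% of all promoters. It lies at chr4:156200819-156201068 on the minus strand (RefSeq, GRCm38.p6), with 3 overlapping matches in capitals that begin 78, 72 and 66 bases before the start. Among genes counted in clean XCR1/CLEC9A members, 7 of 79 higher promoters (8.86%) and 9 of 242 lower ones (3.72%) held the letters, beside 4.58% of 2838 measured. Among genes counted in clean CD209A members the order was the other way, with 2 of 42 higher promoters (4.76%) and 8 of 84 lower ones (9.52%), beside 4.73% of 1542 measured.
Isg15: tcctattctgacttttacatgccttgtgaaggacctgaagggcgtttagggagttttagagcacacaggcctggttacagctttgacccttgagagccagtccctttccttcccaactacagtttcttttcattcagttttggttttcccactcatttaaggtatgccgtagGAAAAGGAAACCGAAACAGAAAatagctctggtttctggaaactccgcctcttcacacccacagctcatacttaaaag

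Of the heat shock genes, Hspa1a and Hspa1b, which encode nearly identical inducible HSP70 proteins and can share reads, were higher in Fbn1 C1039G/+ in both clean subsets. Hspa1a went from 41.1 to 196 CPM in clean XCR1/CLEC9A members, a ratio of 4.75 (3.28 to 7.06), and from 76.5 to 438 CPM in clean CD209A members, a ratio of 5.73 (3.64 to 9.46). The highest Fbn1 C1039G/+ cell held 22.9% and 15.3% of these UMIs. Both remained counted without the member of highest heat shock share in each subset and library. The other 7 and 6 measured heat shock genes were not counted, among them the constitutive Hspa8 at 2064 and 2477 CPM in XCR1/CLEC9A members. Over all genes measured in the clean subsets, 2.73% and 2.59% were counted higher. In macrophages of high MHC class II, Hspa1a stood at 351 and 492 CPM, which was not counted. Of the same list, Hspa1b was counted higher there and Dnajb1 lower.

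Of 18 cell cycle genes, 7 were measured in clean CD209A members. Of these, 5 were lower in Fbn1 C1039G/+, beside 6.28% of 1927 genes, but few cells carried them. Without the member of highest share in each subset and library 3 of 5 were lower. In clean XCR1/CLEC9A members 0 of 14 were counted, beside 11.1% of 3548 genes, and 2 of 11 were lower without that member. Mki67 stood at 112 and 81.5 CPM over all XCR1/CLEC9A members and at 108 and 47.8 CPM over all CD209A members.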

How the data were processed

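Per the labels' protocols, cells of pooled mitral valves were processed with the 10x Genomics Chromium 3' v3.1 kit. The values are deposited UMI counts per gene and barcode that the authors made with Cell Ranger, given as version 3.1.0 by the submitters' processing notes and as 5.0.1 by the count files' header, on mm10. Counts were summed over cells per library and scaled to CPM. Intervals were exact: Poisson for a level, binomial given the total of both sums for a ratio, and Clopper-Pearson for a share. Differences between 2 shares had Newcombe's interval. A gene was counted between genotypes at 1.5-fold with at least 50 UMIs, and between subsets at 2-fold in both libraries with at least 20, each with an interval that excluded 1.

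The members and gene lists were chosen with earlier results of these data known. Named genes were the 12 largest and 12 smallest counted subset ratios, ranked by the library nearer to 1, and the 10 largest and 10 smallest counted genotype ratios, with list genes added; genes of the member rule, gene models and ribosomal, mitochondrial and sex-linked marker genes were left out. In the ranking a sum of 0 entered at 3 counts. Of 257 list entries, 255 had a row; Clec7a and Mx1 were not analysed here. Log2 ratios carry a pseudocount of 1 CPM. Automatic Scrublet calls (scanpy 1.11.5) marked 1 and 2 barcodes and were not used, so doublets were kept, and the 695 and 776 highest scores were left out as an alternative. The steps used Python 3.11.15, numpy 2.4.6, scipy 1.17.1 and pandas 2.3.3, and were tested on simulated data.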

Additional observations from a re-analysis of the deposited data

Results flagged for a closer look

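In 5 genes the ratio of Fbn1 C1039G/+ over wild type was counted in opposite directions in the subsets, which flagged them; the difference between the subsets was not tested. Mgl2, the cDC2 lectin, had a log2 ratio of 0.66 in CD209A members (951 to 1504 CPM) and of -1.25 in XCR1/CLEC9A members (102 to 42.1 CPM). The transcription factor gene Cebpa had log2 ratios of 0.78 (65.7 to 113 CPM) and -0.96 (59.1 to 29.9 CPM), and Hhex of 0.98 (49.9 to 99.5 CPM) and -0.65 (66.9 to 42.1 CPM). Znhit1 had log2 ratios of 1.23 (39.4 to 93.5 CPM) and -0.74 (73.1 to 43.5 CPM). In clean members Cebpa and Hhex were again counted in both directions, while Mgl2 and Znhit1 were counted in XCR1/CLEC9A members only. Dct, a pigment enzyme gene of melanocytes, had log2 ratios of 7.29 (0 UMIs to 155 CPM, with a pseudocount of 1 CPM) and -1.55 (117 to 39.4 CPM). Of its UMIs, 96.2% to 99.3% lay in 1 cell in each subset and library where it was detected. In clean members the Dct log2 ratios were 7.46 in CD209A members, which was counted, and 4.28 in XCR1/CLEC9A members, which was not. The opposite directions were thus not seen there.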

How the results depend on the processing

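No paired analysis was possible because each genotype had 1 library. Of 878 recomputed values over 128 results, 787 kept their direction and moved little, 90 moved and 1 reversed, and 466 of 480 values of genes named between subsets kept theirs. The limit of 0.1% interstitial UMIs and the step without the member of highest list share were chosen after seeing the data. The cause of a move was not tested unless the setting itself removes genes or cells. Members were 0.435% (40) of wild type and 0.371% (35) of Fbn1 C1039G/+ barcodes without any with a lymphoid marker UMI. Under 0.1% interstitial UMIs they were 0.947% of wild type and 1.06% of Fbn1 C1039G/+ barcodes. Thinning gave 54.5% XCR1/CLEC9A members in wild type. Genes higher in Fbn1 C1039G/+ members (184) came to 319 with median of ratios scaling, 310 without the filter, 110 with a doubled UMI minimum and 111 with the subsets weighted equally. Genes lower (768) came to 1328 without the filter, 419 with a doubled minimum, 379 without the highest Scrublet scores and 320 under 0.1% interstitial UMIs. Igfbp3 reversed to a log2 ratio of 0.018 under 0.1%.

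With list genes of at least 100 CPM alone, counted genes over all members fell to 0 for shared dendritic cell genes, pattern recognition receptors and receptors for growth factors and chemokines, to 1 for class II, costimulation, cytokine, heat shock and cell cycle genes, and to 2 for cDC2, maturation and interferon genes. In XCR1/CLEC9A members 0 were counted of 5 shared, 14 class I, 1 pattern recognition and 4 cell cycle genes. The count was 1 each of 3 receptors and 6 heat shock genes, and 2 of 3 maturation genes. In CD209A members it was 1 of 8 receptors. Under 0.1% interstitial UMIs the counts over all members were 2 for cDC1, 2 for shared, 1 for class II and 6 for cell cycle genes. In XCR1/CLEC9A members they were 2 for maturation, 2 for costimulation and 0 for cell cycle genes, and in CD209A members 0 for cDC2 and 0 for class II genes. Without the member of highest list share, interferon counts were 2 in XCR1/CLEC9A (1 higher, 1 lower) and 0 in CD209A members, and cell cycle counts 4 over all, 1 in XCR1/CLEC9A and 2 in CD209A members.

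The counts came from 22 wild type and 44 Fbn1 C1039G/+ clean CD209A cells, so 1927 genes reached 50 UMIs there against 3548 in clean XCR1/CLEC9A members, and a list gene below it was not judged.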

Other observations

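Against both macrophage groups (class II high, and 289 and 402 barcodes of low class II), the genes with the largest ratios in members of both libraries were Sept3, Itgae, Cldn1, Gpr141b, Cd24a, Btla, Jaml, Fcrla, Kit and Ffar4. The smallest of the 4 log2 ratios was 6.05 for Sept3, a septin, 5.60 for Itgae, 5.17 for Cldn1, a tight junction protein, and 4.54 for Ffar4, a fatty acid receptor. Low C1q was part of the member rule and high C1q of the macrophage rule, so these values are a description. Epcam, an adhesion molecule of Langerhans cells and some dendritic cells, was higher in Fbn1 C1039G/+ in clean XCR1/CLEC9A members, at 215 and 341 CPM, a ratio of 1.59 (1.31 to 1.93), and stood at 496 and 604 CPM in clean CD209A members, which was not counted.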
